A study of Mus musculus with 12 samples.

Results

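The 9 genes described here mark or shape the projection neurons of the striatum, and they were followed through RNA of mouse hippocampus. They were taken as the rows with these symbols in a table of 29454 genes: Drd1 and Isl1 of the direct pathway, Drd2, Adora2a and Six3 of the indirect pathway, Ppp1r1b, Rgs9 and Pde10a of the signalling machinery, and Foxp1. Each symbol had 1 row, and all 9 were among the 16503 genes tested, those that reached 1 FPKM in 3 or more libraries. FPKM counts sequenced fragments relative to transcript length and to the library's total. Isl1 and Six3 reached 1 FPKM in only 5 of the 12 libraries and Drd2 in 10, so these passed through the libraries in which they were high.

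RNA was sequenced after ribosomal RNA depletion from hippocampi dissected from C57/BL6 pups, all littermates, aged postnatal day 4 by the sample labels although the design text gives day 0. The 3 WT libraries carry no transgene. The 3 CAMK libraries carry the CaMKIIα-tTA driver, in which the CaMKIIα promoter, active in forebrain excitatory neurons and also in the striatum, drives the tetracycline transactivator. The 6 CX3CL1-ct libraries carry that driver together with Tg-CX3CL1-ct, a transgene encoding the carboxy end of the neuronal chemokine CX3CL1, so the CAMK group is their control for the driver. No label says that each library is a separate pup, and p-values therefore measure only the spread between these libraries, which may be technical.

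Projection neurons make up most of the striatum and use GABA. One class carries the dopamine receptor D1 and projects directly to the output nuclei of the basal ganglia, whereas the other carries D2 together with an adenosine receptor (the product of Adora2a) and projects by way of the pallidum. D1 raises and D2 lowers cyclic AMP, and DARPP-32 (the product of Ppp1r1b), PDE10A and RGS9 act on that signal or on its G proteins. Isl1 and Six3 are transcription factors needed for the direct and the indirect class respectively, and Foxp1 is found in both classes but also in cortical and hippocampal neurons. The hippocampus borders the striatum and other forebrain structures across the ventricle and fimbria, and holds some cells with D1 or D2 of its own.

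The promoters of the receptor and transcription factor genes on which the results turn are shown to set the 2 receptors beside the 2 factors that separate from them below. RefSeq windows on GRCm38.p6, running from 250 bases before to 50 bases after a start, were at hand for 7 of the 9 genes (11 windows), and not for Ppp1r1b and Adora2a. Each window is written in the direction of transcription. Capitals mark matches on either strand to GGGCGG (GC box), TGACGT (the core of a cyclic AMP response element), TGTTTA (forkhead) or TAATTA (homeodomain); no match overlaps another in these 4 windows. The positions are chr13:54055609-54055908 on the minus strand for Drd1, chr9:49340153-49340452 on the plus strand for Drd2, chr13:116309639-116309938 on the minus strand for Isl1 and chr17:85620584-85620883 on the plus strand for Six3.
Drd1: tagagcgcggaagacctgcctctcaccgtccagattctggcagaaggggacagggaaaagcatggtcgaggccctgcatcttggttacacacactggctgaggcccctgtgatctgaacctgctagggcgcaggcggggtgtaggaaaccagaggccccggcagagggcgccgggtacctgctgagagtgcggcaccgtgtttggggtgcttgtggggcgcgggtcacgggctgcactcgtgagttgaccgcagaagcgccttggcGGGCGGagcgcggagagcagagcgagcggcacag
Drd2: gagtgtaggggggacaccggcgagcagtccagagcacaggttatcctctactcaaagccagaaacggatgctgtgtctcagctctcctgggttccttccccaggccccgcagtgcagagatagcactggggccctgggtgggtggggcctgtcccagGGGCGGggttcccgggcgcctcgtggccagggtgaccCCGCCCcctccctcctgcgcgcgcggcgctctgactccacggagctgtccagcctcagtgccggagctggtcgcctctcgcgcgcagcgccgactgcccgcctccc
Isl1: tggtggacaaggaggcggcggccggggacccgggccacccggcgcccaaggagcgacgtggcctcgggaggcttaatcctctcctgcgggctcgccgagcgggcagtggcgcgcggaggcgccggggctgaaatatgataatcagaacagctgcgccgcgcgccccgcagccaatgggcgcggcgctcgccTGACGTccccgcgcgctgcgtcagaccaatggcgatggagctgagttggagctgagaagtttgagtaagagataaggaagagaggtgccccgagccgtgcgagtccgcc
Six3: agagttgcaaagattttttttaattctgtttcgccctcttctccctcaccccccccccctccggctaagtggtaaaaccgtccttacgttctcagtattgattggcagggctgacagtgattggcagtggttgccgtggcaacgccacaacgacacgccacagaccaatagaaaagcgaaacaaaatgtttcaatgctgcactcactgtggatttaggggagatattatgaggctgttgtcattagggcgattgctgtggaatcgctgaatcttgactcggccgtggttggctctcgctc
The 2 receptor promoters held GC boxes, 1 in Drd1 and 2 in Drd2, and no other motif searched. Such a box is common, in 35.7% of 32851 promoter windows of the same length. Isl1 held 1 CRE core, a motif of 7.51% of windows, and Six3 held none of the motifs searched. The forkhead motif (13.4% of windows) and the homeodomain motif (5.29%) had no match in these 4. A match describes letters and is not a measured site.

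Markers of the labelled tissue were read first. All 14 genes of a hippocampal list, such as Neurod6 and Mpped1 of excitatory neurons, were above 0 in every library. So were all genes of the striatal, neocortical and septal lists used below, so this alone cannot tell the hippocampus from its neighbours. The summed hippocampal level was 310.0 to 501 FPKM in WT, 357 to 454 in CAMK and 429 to 513 in CX3CL1-ct other than CX3CL1-ct 5, which stood at 195. By estimate a library held 1.18e+07 to 1.63e+07 fragments. Within their groups CX3CL1-ct 5 and WT 1 stood farthest from the other libraries, and CX3CL1-ct 1, 2 and 3 were close to each other, with a median difference per gene of 0.0800 to 0.0964 on the log2 scale against 0.112 to 0.210 for the other pairs. WT 3 lay between WT 1 and WT 2 in 51.3% of genes and CAMK 3 between CAMK 1 and CAMK 2 in 54.4%. The group differences, the spread and the likeness of the 9 genes, and the called genes of the lists, are given with and without these libraries.

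**Figure D1:**
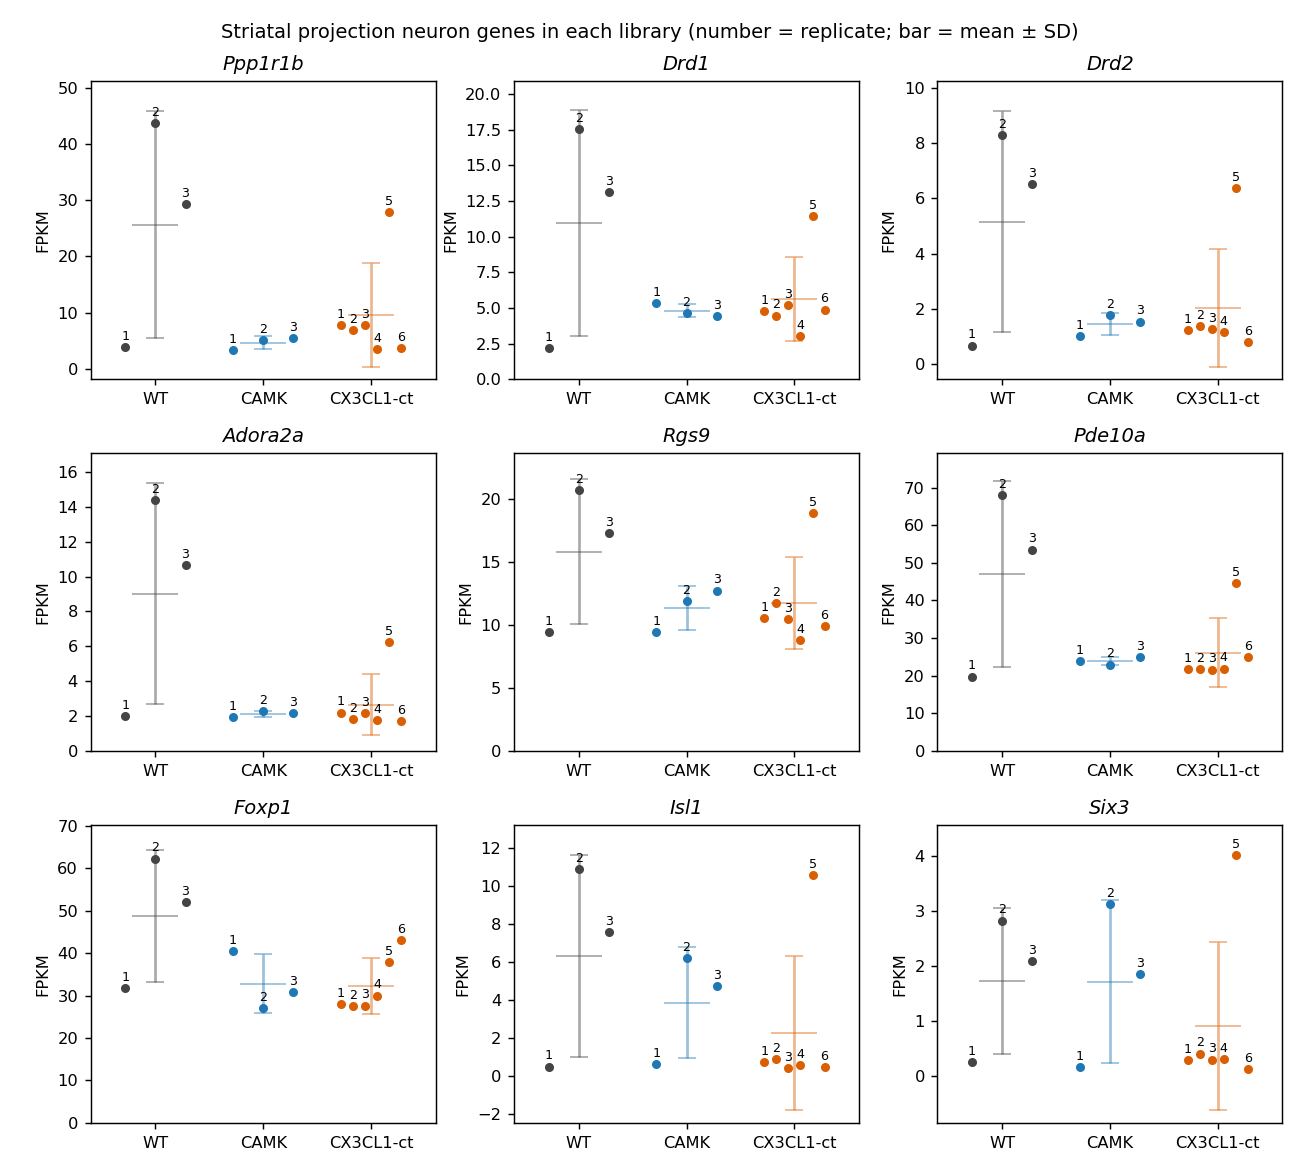
FPKM of each of the 9 genes (vertical axis) in the 12 libraries, grouped on the horizontal axis as WT, CAMK and CX3CL1-ct. Points are libraries, numbers their replicate numbers, and bars the mean ± SD. WT 2 and WT 3 stand above WT 1 in every panel and CX3CL1-ct 5 above the other CX3CL1-ct libraries in every panel except that of Foxp1.

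Drd1 (ENSMUSG00000021478.5, mm10 chromosome 13, 54051183 to 54055705, minus strand), which encodes the D1 receptor of the direct pathway, stood at 2.20, 17.5 and 13.1 FPKM in WT 1 to 3. The 3 CAMK libraries had 5.32, 4.63 and 4.44 FPKM of Drd1, and the CX3CL1-ct libraries ran from 3.02 to 11.4 with a median of 4.83. Drd1 was thus high in WT 2, WT 3 and CX3CL1-ct 5, lowest of all in WT 1, and nearly level across CAMK. Isl1 (ENSMUSG00000042258.13, chromosome 13, 116298281 to 116309689, minus strand), the LIM homeodomain factor of the direct class and also of striatal and basal forebrain cholinergic neurons, stood at 0.477, 10.9 and 7.59 FPKM in WT. Isl1 was 0.605 FPKM in CAMK 1 but 6.22 and 4.74 in CAMK 2 and 3. In CX3CL1-ct Isl1 had a lowest value of 0.404, a median of 0.627 and a highest of 10.6 FPKM, the last in CX3CL1-ct 5. Isl1 therefore split the libraries into 5 at 4.74 FPKM or more and 7 below 1 FPKM, and every group held libraries on both sides.

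Of the indirect pathway genes, Drd2 (ENSMUSG00000032259.7, chromosome 9, 49340627 to 49408177, plus strand), which encodes the D2 receptor, had 0.671, 8.28 and 6.52 FPKM in WT and 1.02, 1.78 and 1.54 in CAMK. In CX3CL1-ct Drd2 ran from 0.811 to 6.36 FPKM with a median of 1.26. Adora2a (ENSMUSG00000020178.5, chromosome 10, 75316877 to 75334784, plus strand), which encodes an adenosine receptor that raises cyclic AMP, had 2.03, 14.4 and 10.6 FPKM in WT and 1.96, 2.27 and 2.20 in CAMK. Its CX3CL1-ct values ran from 1.72 to 6.22 FPKM with a median of 2.01. Both receptors followed Drd1, with the same 3 high libraries. Six3 (ENSMUSG00000038805.10, chromosome 17, 85613608 to 85629302, plus strand), a homeodomain factor of the indirect class that is also made in the hypothalamus and the eye, followed Isl1 in its place. Six3 stood at 0.257, 2.83 and 2.10 FPKM in WT, at 0.166, 3.13 and 1.86 in CAMK, and from 0.133 to 4.02 with a median of 0.302 in CX3CL1-ct. Exons of Six3 overlap Six3os1 and Gm28528 on the other strand, and the sources do not say if counting used strand, so reads of these genes cannot be told apart here.

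The signalling genes had the same 3 high libraries as the receptors. Ppp1r1b (ENSMUSG00000061718.12, chromosome 11, 98348404 to 98357796, plus strand), whose product DARPP-32 inhibits protein phosphatase 1, had 3.85, 43.7 and 29.3 FPKM in WT and 3.31, 5.19 and 5.43 in CAMK. Its CX3CL1-ct values ran from 3.50 to 27.9 FPKM with a median of 7.39, and its exons overlap 1700003D09Rik on the other strand. Pde10a (ENSMUSG00000023868.15, chromosome 17, 8525372 to 8986648, plus strand), a phosphodiesterase of cyclic nucleotides, had 19.8, 68.0 and 53.5 FPKM in WT, 23.9, 23.0 and 24.9 in CAMK, and 21.6 to 44.7 with a median of 21.9 in CX3CL1-ct. Outside the 3 high libraries its values kept to a band of 19.8 to 24.9 FPKM. Rgs9 (ENSMUSG00000020599.13, chromosome 11, 109225355 to 109298129, minus strand), a regulator of G protein signalling, had 9.47, 20.7 and 17.3 FPKM in WT and 9.45, 11.9 and 12.7 in CAMK. Rgs9 ran from 8.80 to 18.9 FPKM in CX3CL1-ct with a median of 10.5. Over all 12 libraries its highest value was 2.35 times its lowest, against 3.43 times for Pde10a and 13.2 times for Ppp1r1b.

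Foxp1 (ENSMUSG00000030067.17, chromosome 6, 98925338 to 99522721, minus strand), a forkhead factor, stood apart from the other 8 genes. Its values were 31.7, 62.2 and 52.0 FPKM in WT, 40.5, 27.1 and 30.8 in CAMK, and 27.5 to 43.1 with a median of 29.0 in CX3CL1-ct. The highest CX3CL1-ct library for Foxp1 was CX3CL1-ct 6 and not CX3CL1-ct 5, which had 37.8 FPKM, and in CAMK the highest was CAMK 1. Exons of Gm20696 and Gm49348 overlap Foxp1 on the same strand.

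**Figure D2:**
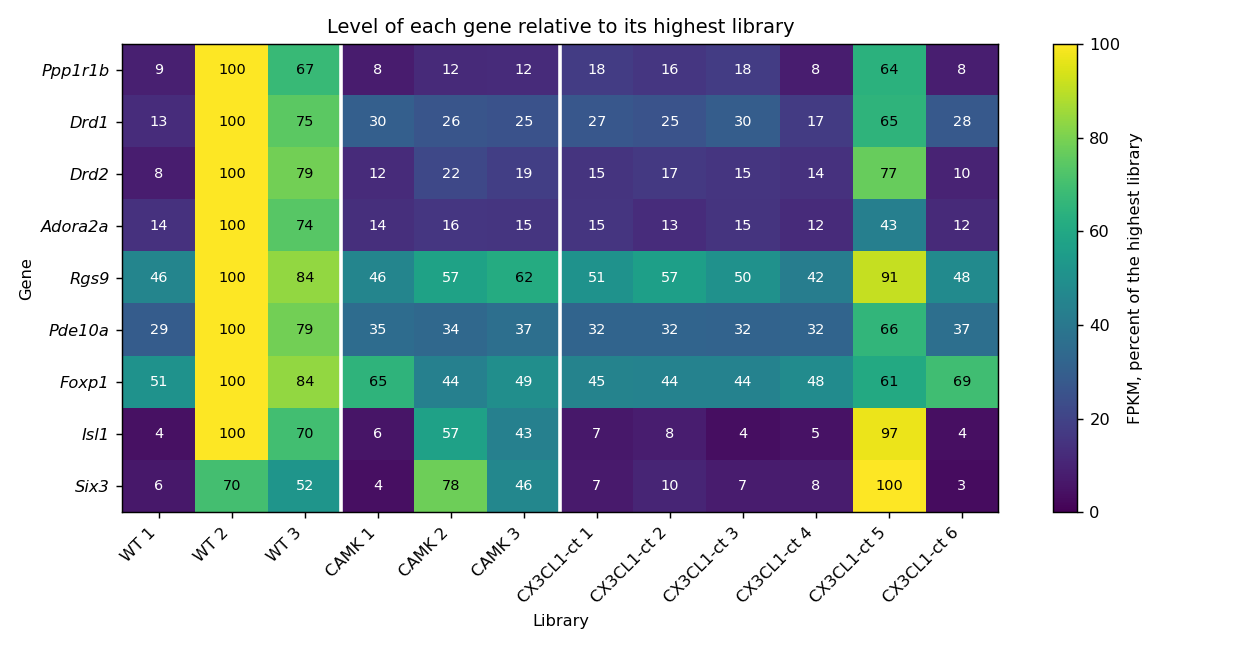
Each gene's FPKM in each library as a percent of that gene's highest library (rows are genes, columns are libraries, colour and number give the percent). WT 2, WT 3 and CX3CL1-ct 5 are bright in nearly every row, and CAMK 2 and CAMK 3 in the rows of Isl1 and Six3.

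Set beside its own highest library, the median gene stood at 12.5% in WT 1, 100% in WT 2 and 74.7% in WT 3. In CX3CL1-ct 5 the median was 65.7%, and in the other 5 CX3CL1-ct libraries it was 18.0, 16.7, 17.9, 14.2 and 11.9%. The CAMK libraries were at 13.6, 33.8 and 36.7% in the order 1, 2, 3. Leaving out Isl1 and Six3 turned the CAMK order around, with 30.3, 26.4 and 25.3%. In tissue RNA, fewer cells of a type and less RNA per cell cannot be told apart.

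All 9 genes were highest in WT 2 and lowest in WT 1 among the WT libraries, an order that 22.2% of the genes tested shared. The order was chosen after the values were seen, and the 9 genes share the same 3 libraries, so the count describes those libraries. A difference of at least 2-fold from WT 1 to both other WT libraries was held by 7 of the 9 genes, all but Rgs9 and Foxp1, against 3.11% of genes tested. Of these 7, Isl1 and Six3 passed the filter only through libraries in which they were high, so the filter favoured the step for them. The ratio of WT 2 to WT 1 was 22.9 for Isl1, 12.3 for Drd2, 11.3 for Ppp1r1b, 11.0 for Six3, 7.97 for Drd1, 7.10 for Adora2a, 3.43 for Pde10a, 2.19 for Rgs9 and 1.96 for Foxp1. WT 3 kept a nearly fixed place for every gene: it lay 64.0% to 76.9% of the way from WT 1 to WT 2 on the FPKM scale. The genes thus differed widely in the size of the step between WT libraries and little in where WT 3 fell on it.

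In CX3CL1-ct, 8 of the 9 genes were highest in library 5, all but Foxp1, against 29.8% of genes tested. For 6 genes, namely Ppp1r1b, Drd1, Drd2, Adora2a, Isl1 and Six3, library 5 was at least 2-fold above the next CX3CL1-ct library, against 1.58% of genes tested. Library 5 was singled out after the values were seen, so these counts describe that library. Isl1 and Six3 also passed the filter only through libraries in which they were high, library 5 among them, so the filter favoured the step for them. Relative to the median of the other 5 libraries the ratio was 19.4 for Isl1 and 13.4 for Six3, then 5.10 for Drd2, 4.02 for Ppp1r1b, 3.36 for Adora2a, 2.40 for Drd1, 2.04 for Pde10a, 1.81 for Rgs9 and 1.35 for Foxp1. The step in CX3CL1-ct 5 was not a scaled copy of that between WT libraries. As a percent of the FPKM difference between WT 2 and WT 1, the excess of CX3CL1-ct 5 over the median of the others was 35.4 for Adora2a, 43.4 for Drd1, 47.3 for Pde10a, 52.7 for Ppp1r1b, 67.2 for Drd2 and 75.1 for Rgs9. For Isl1 it was 96.1% and for Six3 145%.

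In CAMK, 6 of the 9 genes were lowest in library 1 (40.5% of genes tested), and only Isl1 and Six3 were at least 2-fold higher in both other libraries (2.65% of genes tested). Isl1 and Six3 passed the filter only through libraries in which they were high, CAMK 2 and CAMK 3 among them. The filter thus favoured this step, and the share gives it no support. CAMK 2 exceeded CAMK 1 by 10.3 times for Isl1 and 18.9 times for Six3, and CAMK 3 did so by 7.84 and 11.3 times. For the other 7 genes the ratio of CAMK 2 to CAMK 1 lay between 0.669 (Foxp1) and 1.74 (Drd2), with 0.871 for Drd1 and 1.16 for Adora2a. The excess of CAMK 2 over CAMK 1 came to 53.9% of the WT step for Isl1 and 116% for Six3, and to -4.46% for Drd1, 2.50% for Adora2a and 4.71% for Ppp1r1b.

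**Figure D3:**
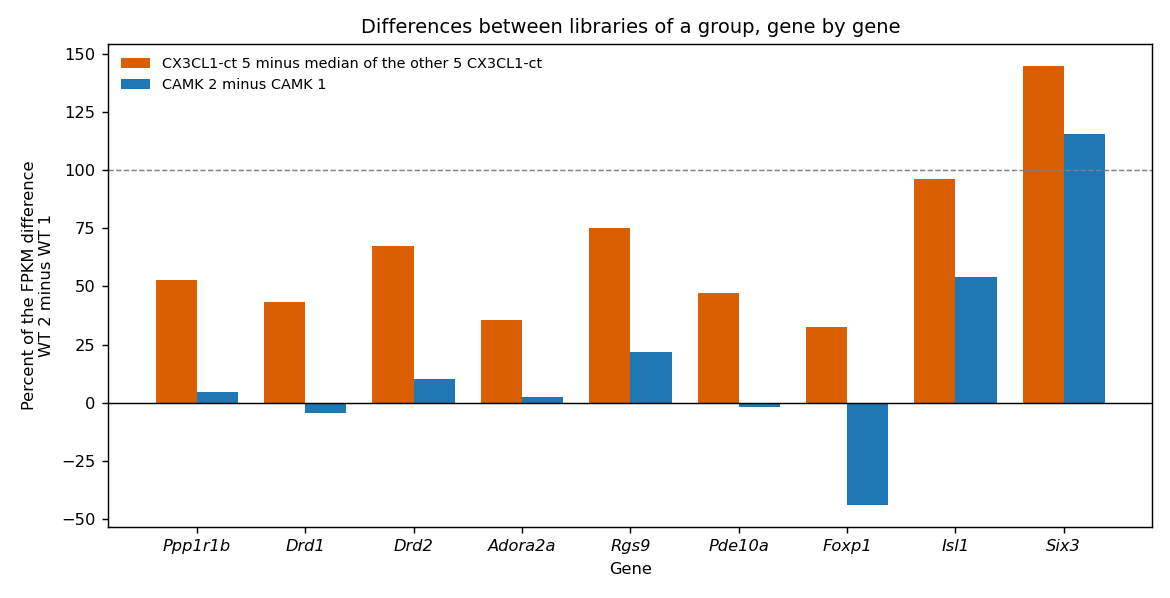
FPKM excess of CX3CL1-ct 5 over the median of the other 5 CX3CL1-ct libraries, and of CAMK 2 over CAMK 1, as a percent of the difference between WT 2 and WT 1 for the same gene (vertical axis; genes on the horizontal axis). The dashed line marks a difference as large as that in WT. Isl1 and Six3 have tall bars in both colours, whereas the CAMK bars of the other 7 genes run from -44.0 to 21.9%.

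Ratios between genes of one library show the same separation without reference to a group. FPKM is per length, so levels of different genes can be divided. Drd1 exceeded Drd2 in all 12 libraries, by 1.80 times in CX3CL1-ct 5, 2.12 and 2.01 in WT 2 and WT 3, 3.28 in WT 1, 2.58 to 6.03 in the other CX3CL1-ct libraries and 2.60 to 5.19 in CAMK. The ratio was thus lowest in the 3 libraries with the most of both receptors. The ratio of Isl1 to Drd1 was 0.114 in CAMK 1 and 1.34 and 1.07 in CAMK 2 and 3, whereas WT 2 and WT 3 had 0.622 and 0.580 and CX3CL1-ct 5 had 0.926. The remaining CX3CL1-ct libraries had 0.0777 to 0.191 and WT 1 had 0.217. Six3 to Drd2 behaved alike, with 1.76 and 1.21 in CAMK 2 and 3, 0.633 in CX3CL1-ct 5 and 0.162 to 0.383 in the other 9 libraries.

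Spread within groups was taken as the residual SD of log2(FPKM + 1) around the 3 group means, with 12 libraries. It was 1.29 for Isl1, 1.09 for Ppp1r1b, 0.85 for Drd2 and for Six3, 0.76 for Drd1, 0.72 for Adora2a, 0.53 for Pde10a, 0.39 for Rgs9 and 0.34 for Foxp1, against a median of 0.15 over the genes tested. Among the genes tested these SDs lay between percentile 89.5 (Foxp1) and percentile 99 (Isl1). Within-group deviations of each gene were set against the mean of the other 8, as a description over 12 points that share libraries. Pearson's r was 0.984 for Adora2a, 0.983 for Drd2, 0.975 for Pde10a, 0.961 for Rgs9, 0.956 for Ppp1r1b, 0.948 for Drd1, 0.910 for Isl1, 0.825 for Six3 and 0.574 for Foxp1. Isl1 and Six3 went together with r = 0.983, and Drd2 with Adora2a with r = 0.984, while Foxp1 and Six3 had the weakest pair (r = 0.258).

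Much of this spread and likeness rested on WT 1 and CX3CL1-ct 5. Without both, the SD fell to 0.43 for Ppp1r1b, 0.22 for Drd1, 0.19 for Drd2, 0.14 for Adora2a, 0.17 for Rgs9 and 0.11 for Pde10a over 10 libraries, where the median over genes was 0.13. Pde10a was then at percentile 39.5 and Adora2a at percentile 55.6 of the genes tested. Isl1 and Six3 kept SDs of 0.65 and 0.52, at percentiles 97.9 and 96.8, and Foxp1 had 0.26. The r with the mean of the other 8 then ran from 0.365 (Drd1) to 0.836 (Rgs9), with -0.386 for Foxp1. Isl1 with Six3 had r = 0.978 and Drd2 with Adora2a r = 0.710 without both libraries. Leaving out 1 of them mattered less: without CX3CL1-ct 5 the SDs lay between percentile 90 and percentile 98.8, and without WT 1 between percentile 83.3 and percentile 98.9, although the SD of Drd1 fell to 0.44, that of Adora2a to 0.44 and that of Pde10a to 0.33. The r of Foxp1 was 0.193 without WT 1. Without CX3CL1-ct 1 to 3 the percentiles were 89.7 to 99.2 and r ran from 0.559 (Foxp1) to 0.992 (Ppp1r1b).

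The comparison of CX3CL1-ct with CAMK asks what the transgene adds to the driver. No gene of the 9 passed it with limma on log2(FPKM + 1) and Benjamini-Hochberg adjustment over all genes tested, and 0 had an unadjusted p under 0.05. Over all genes 0.0606% passed, so a count of 0 among 9 is near the background. The widest differences were 0.61 for Ppp1r1b (95% interval -0.86 to 2.09, adjusted p = 0.933), -0.88 for Isl1 (-2.62 to 0.86, adjusted p = 0.900) and -0.57 for Six3 (-1.73 to 0.58, adjusted p = 0.901). The remaining 6 differences lay between -0.02 (Foxp1) and 0.13 (Drd2), and the narrowest interval, that of Foxp1, ran from -0.48 to 0.44. Of the 9 differences 6 were positive and 3 negative with a median of 0.07, where the median of all genes was 0.04 and 36.8% of genes were negative. Without CX3CL1-ct 5 the median was -0.10, and without CX3CL1-ct 1 to 3 it was 0.20.

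Against WT, CX3CL1-ct showed lower means for all 9 genes, with a median of -0.71 where all genes had 0.04 and 37.3% negative. None passed (0.454% of genes tested did), and 2 of the 9, Adora2a and Foxp1, had an unadjusted p under 0.05, as had 12.3% of all genes. Adora2a averaged 2.66 ± 1.76 FPKM (SD, n = 6) against 9.02 ± 6.34 (SD, n = 3) in WT. On the log2 scale the difference was -1.26 (95% interval -2.23 to -0.28; limma adjusted p = 0.281). The groups overlapped, since WT 1 lay among the CX3CL1-ct libraries. Foxp1 differed by -0.54 (SE 0.21, adjusted p = 0.332), Pde10a by -0.71 (-1.42 to 0.00, adjusted p = 0.409) and Ppp1r1b by -1.14 (-2.61 to 0.34, adjusted p = 0.521). Isl1 had the widest interval, -3.01 to 0.47 around -1.27.

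These values turned on single libraries. Without WT 1 the median difference was -1.38, 8 of the 9 genes had an unadjusted p under 0.05, and Adora2a passed with -1.97 (limma adjusted p = 0.0266). Without WT 2 the median was -0.36 and without WT 3 -0.53, with 0 genes at an unadjusted p under 0.05 in either case. Without CX3CL1-ct 5 the median was -0.94 and 8 genes had an unadjusted p under 0.05, but none passed (lowest adjusted p = 0.112). Without CX3CL1-ct 1 to 3 the median was -0.51 and none passed (lowest adjusted p = 0.717).

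CAMK against WT uses the same 3 WT libraries, so its values are only set beside those above. All 9 differences were negative with a median of -0.70, where all genes had a median of 0.00 and 49.5% were negative. None passed (0.358% of genes tested did), while 2, Adora2a and Ppp1r1b, had an unadjusted p under 0.05, as had 12.4% of all genes. Ppp1r1b averaged 4.64 ± 1.16 FPKM (SD, n = 3) in CAMK against 25.6 ± 20.2 in WT. On the log2 scale it differed by -1.75 (-3.46 to -0.05; limma adjusted p = 0.390). Adora2a averaged 2.14 ± 0.162 FPKM in CAMK and differed by -1.38 (-2.50 to -0.25, adjusted p = 0.306). Isl1 differed by -0.39 (-2.41 to 1.62) and Six3 by -0.04 (-1.37 to 1.30), both with intervals across 0. Without WT 1, Adora2a passed (-2.09, limma adjusted p = 0.0349) and the median was -1.32, whereas without WT 2 or WT 3 it was -0.32 or -0.45. With the replicate number as a block, in libraries 1 to 3 of each group, no gene of the 9 passed (lowest adjusted p = 0.166), although the genes called over the whole table went from 59 to 484.

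**Figure D4:**
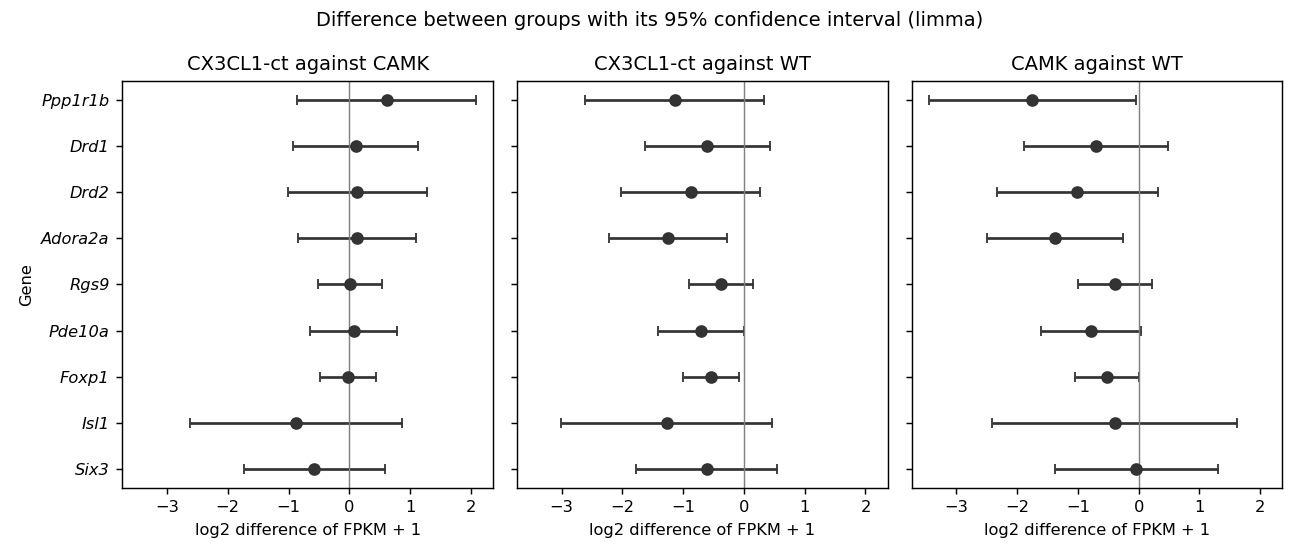
Difference between group means of log2(FPKM + 1) for each gene (points) with its 95% confidence interval from limma (bars), in 3 panels for the 3 comparisons. Points of the first panel lie near 0 or to either side, and all points of the other 2 panels lie below 0 with wide intervals.

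Other genes of the striatal pathway were taken from a list of 30, of which 29 were tested. None passed in CX3CL1-ct against CAMK (limma, 1 at an unadjusted p under 0.05) or against WT (6 at an unadjusted p under 0.05). In CAMK against WT 1 was lower and 0 were higher, with 7 at an unadjusted p under 0.05. That gene was Bcl11b, the transcription factor CTIP2 of striatal and deep cortical neurons, with 31.7, 24.8 and 26.2 FPKM in CAMK against 37.8, 58.1 and 50.7 in WT (log2 difference -0.79, adjusted p = 0.0397). Bcl11b did not pass with the replicate number as a block (adjusted p = 0.0558), nor without WT 2, WT 3, CAMK 2 or CAMK 3 (adjusted p of 0.151, 0.182, 0.150 and 0.177). In the limma fit without CX3CL1-ct Bcl11b missed the threshold too (adjusted p = 0.152). The list's median differences were 0.05, -0.40 and -0.50 in the order of the comparisons above. Of the 29 genes 25 had the order of WT 2 highest and WT 1 lowest (22.2% of genes tested). Of the same 29, 24 were highest in CX3CL1-ct 5 (29.8%) and 18 lowest in CAMK 1 (40.5%). At least 2-fold steps were held by 16 in WT (3.11%), 12 in CX3CL1-ct 5 (1.58%) and 3 in CAMK (2.65%). The list was chosen with earlier results known, so these counts are no independent support. Some of its genes, such as Ikzf1, passed the filter only through libraries in which they were high, and the filter favoured these orders for them.

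The genes of the list chosen for display after their values were seen include the neuropeptides of both classes. Penk, which encodes the enkephalin precursor of the indirect class, stood at 2.52, 35.2 and 23.8 FPKM in WT, at 2.43, 5.43 and 5.09 in CAMK, and at 22.1 in CX3CL1-ct 5. Tac1, which encodes the substance P precursor of the direct class, stood at 6.82, 37.5 and 26.5 FPKM in WT, at 4.98, 9.71 and 11.0 in CAMK, and at 40.3 in CX3CL1-ct 5. Both peptides were thus high in the same 3 libraries. Meis2, a homeodomain factor of striatal neurons and olfactory interneurons, was likewise highest in CX3CL1-ct 5 (90.4 FPKM) and lowest in WT 1 (20.9), with r = 0.859 to the 9 genes. It departed from them in CX3CL1-ct 1 to 3, where it was 68.9, 72.3 and 68.2 FPKM, close to the 62.8 to 77.7 of WT 3 and WT 2, while Drd1 was 4.47 to 5.20 in those same libraries. Cnr1, the cannabinoid receptor, which hippocampal interneurons also carry, was lowest in CX3CL1-ct 5 (54.0 FPKM) among CX3CL1-ct libraries.

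Of 6 further dopamine and adenosine receptors 2 were tested, and 0 passed in any comparison (limma, 0 at an unadjusted p under 0.05). Adora1, the A1 receptor of hippocampal neurons, ran opposite to Adora2a, with 34.7, 25.8 and 30.5 FPKM in WT and 21.4 in CX3CL1-ct 5 against 29.4 to 34.0 in the other CX3CL1-ct libraries. Adora2b was 1.10 to 2.07 FPKM throughout. Drd3, chosen after its values were seen, was listed at 0 in 4 libraries and reached at most 0.23 FPKM.

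By the pattern within groups, 11410 genes were ranked by r with the mean of the 9 genes' deviations, and 1.55% of them exceeded 0.9. The 12 most alike were Pde1b (r = 0.989, 12 libraries), Gnal (0.983), Rxrg and Dach1 (0.982 each), Rarb (0.982), Rgs2 (0.978), Pde7b (0.977), Xpr1 (0.976), Arglu1 and Brd8 (0.975 each), Htr1b (0.971) and Pcdhgc5 (0.970). Gnal encodes the G protein that couples these D1 and adenosine receptors to adenylyl cyclase in the striatum, Pde1b and Pde7b are phosphodiesterases, and Rarb and Rxrg are retinoid receptors. Rxrg showed the widest steps, from 1.77 FPKM in WT 1 to 28.8 in WT 2 and 17.8 in CX3CL1-ct 5. Gnal, which is made elsewhere in the forebrain too, went only from 35.8 to 84.4 FPKM between WT 1 and WT 2. The 4 most opposite genes were Grb14 (-0.975), Agpat3 (-0.965), Mrps12 (-0.961) and Pex5l (-0.960). With the points of CX3CL1-ct 5 and WT 1, the libraries farthest from the median, dropped, the 12 genes had r from 0.902 (Pcdhgc5) to 0.977 (Pde1b) over 10 libraries. Deviations were still taken from group means that include both libraries, so their weight in r was not removed.

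Markers of neighbouring tissues moved with the 9 genes in part. Of 14 hippocampal genes 13 were tested. Of these 1 shared the WT order (22.2% of genes tested) and 1 was highest in CX3CL1-ct 5 (29.8%). Neurod6 stood at 149.8, 81.2 and 117.8 FPKM in WT, and at 43.8 in CX3CL1-ct 5 against 131 to 163 in the other CX3CL1-ct libraries. Mpped1 did the same, with 74.9, 35.4 and 50.3 FPKM in WT and 30.7 in CX3CL1-ct 5. Libraries high in Drd1 and Drd2 were thus the ones low in Neurod6. CAMK 2 and CAMK 3, high in Isl1 and Six3, had 120.4 and 129 FPKM of Neurod6 against 127 in CAMK 1. Mpped1 was not so level in CAMK, at 119.6, 73.5 and 96.1 FPKM in libraries 1 to 3. The summed hippocampal level was 454, 357 and 404 FPKM in the same order. None of the 13 passed in a comparison (limma, 0, 6 and 4 at an unadjusted p under 0.05 in the order above).

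**Figure D5:**
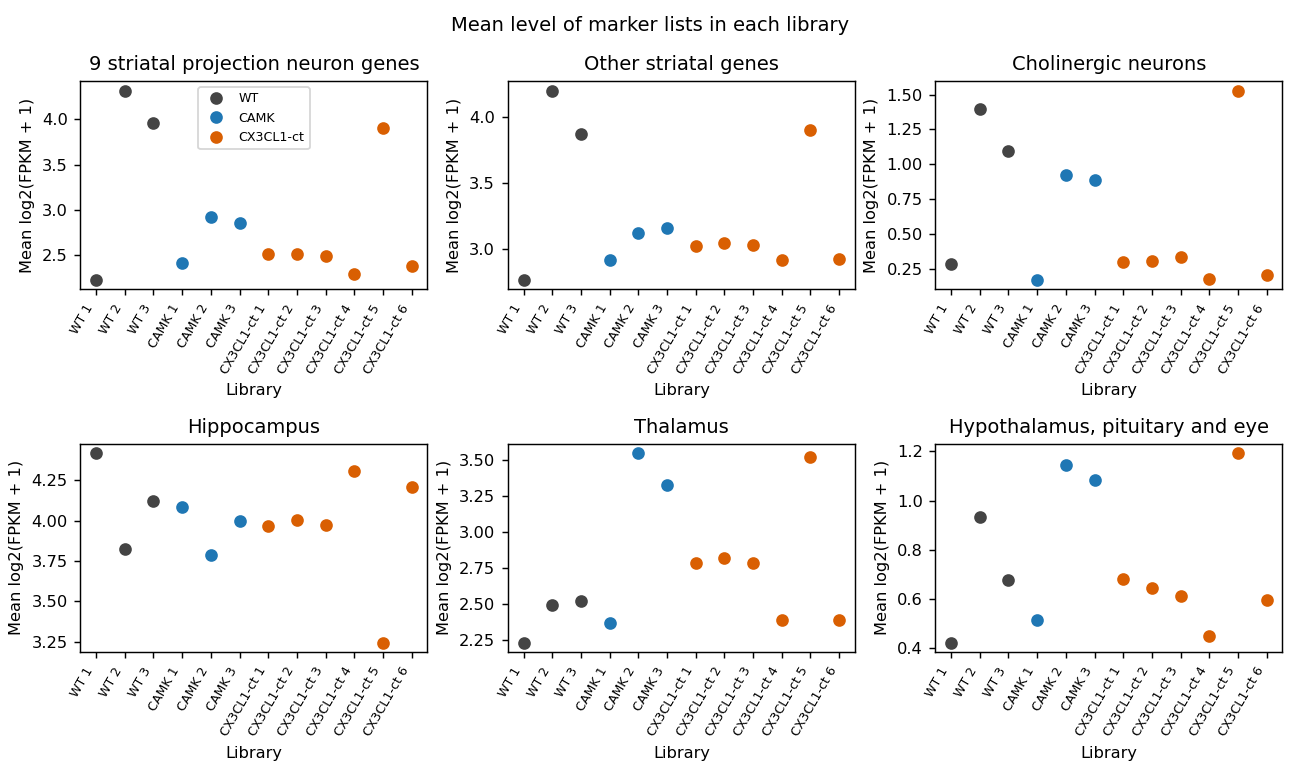
Mean log2(FPKM + 1) of the 9 genes and of 5 lists of markers (vertical axes, which differ in range and do not start at 0) in each library (horizontal axis, coloured by group). The other striatal genes follow the 9, the cholinergic, thalamic and hypothalamic lists are also raised in CAMK 2 and CAMK 3, and the hippocampal list is lowest in CX3CL1-ct 5.

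Lhx8 and Slc5a7 of the cholinergic neuron genes had the split of Isl1. Lhx8, a LIM homeodomain factor of cholinergic neurons, stood at 0.0613, 6.20 and 3.75 FPKM in WT, at 0.0556, 2.89 and 2.17 in CAMK and at 6.49 in CX3CL1-ct 5, and no other CX3CL1-ct library exceeded 0.156. All 3 tested members of a list of 6 had the WT order (22.2% of genes tested), were highest in CX3CL1-ct 5 (29.8%) and were lowest in CAMK 1 (40.5%). These 3, Lhx8, Slc5a7 and Gbx2, reached 1 FPKM only in libraries in which they were high. The filter thus favoured these orders, and the counts give them no support. Gbx2, which is also on the thalamic list, lacked the split of Isl1, with 0.629 to 0.696 FPKM in CX3CL1-ct 1 to 3 and 0.445 in WT 2. Slc5a7, the choline transporter, reached 3.46 FPKM in CX3CL1-ct 5. The summed level ran from 1.42 to 12.7 FPKM in WT, 0.808 to 6.38 in CAMK and 0.809 to 14.2 in CX3CL1-ct. Chat and Gbx2 of the list were at 0 in at least 1 library.

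Thalamic genes split CAMK in the same way but not WT, and the summed hypothalamic level split both. Slc17a6, the vesicular glutamate transporter VGLUT2, had 19.7, 45.6 and 36.2 FPKM in CAMK, 22.9, 16.8 and 21.3 in WT and 57.5 in CX3CL1-ct 5. Tcf7l2, a thalamic transcription factor chosen after its values were seen, had 1.30, 23.0 and 15.8 FPKM in CAMK, 12.2 in CX3CL1-ct 5 and 1.04 to 1.77 in WT. Foxp2 and Gbx2 of the thalamic list are also counted in the striatal and the cholinergic list respectively. Of the 12 thalamic genes 10 were lowest in CAMK 1 (40.5% of genes tested) and 9 highest in CX3CL1-ct 5 (29.8%). Both counts include Gbx2, for which the filter favoured these orders. The WT order was held by 3 of the 12, near the share over all genes tested (22.2%). The thalamic sums ran from 80.9 to 99.2 FPKM in WT, 74.8 to 185 in CAMK and 74.1 to 205 in CX3CL1-ct. Avp, the vasopressin gene of the hypothalamus, was listed at 0 in WT 1 and CAMK 1 and stood at 6.54 and 3.02 FPKM in WT 2 and 3, 8.10 and 6.06 in CAMK 2 and 3 and 6.31 in CX3CL1-ct 5. The 5 libraries with more than 1 FPKM of Avp were those with more than 1 FPKM of Isl1 and of Six3. The list of 12 for hypothalamus, pituitary and eye, with 6 tested, had sums of 6.97 to 18.2 FPKM in WT, 8.05 to 24.5 in CAMK and 7.51 to 24.4 in CX3CL1-ct, and 8 of its genes were at 0 in at least 1 library. The part of these tissues in the values of Isl1 and Six3 was not tested.

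Of 15 interneuron and ganglionic eminence genes tested, 11 had the WT order (22.2% of genes tested), 6 were highest in CX3CL1-ct 5 (29.8%) and 9 lowest in CAMK 1 (40.5%). Nkx2-1, counted in each, passed the filter only through WT 2, WT 3, CAMK 2 and CX3CL1-ct 5, so the filter favoured these orders for it. Sst, the somatostatin gene of interneurons, went against the WT order with 182.8, 152.0 and 150.2 FPKM, and was 150.2 in CX3CL1-ct 5. Npy, which encodes neuropeptide Y of interneurons, was 49.1, 78.8 and 63.5 FPKM in WT and 60.6 in CX3CL1-ct 5, within the 49.7 to 75.9 of the other CX3CL1-ct libraries. Their sums were 377 to 454 FPKM in WT, 339 to 352 in CAMK and 285 to 445 in CX3CL1-ct. Septal and pallidal genes showed 4 of 8 in each order and sums of 90.3 to 95.2, 96.3 to 100.3 and 85.4 to 105 FPKM in WT, CAMK and CX3CL1-ct. Zic1, a zinc finger factor of the septum, was 7.97, 27.0 and 21.1 FPKM in WT, 6.71, 29.3 and 23.1 in CAMK and 39.3 in CX3CL1-ct 5. Zic1 thus rejoined the 5 libraries of Isl1, but was also 20.3 to 23.3 FPKM in CX3CL1-ct 1 to 3, where Isl1 was under 1. Lhx2, a LIM homeodomain factor of the developing hippocampus and cortex, ran opposite to Zic1 with 36.2, 18.4 and 22.4 FPKM in WT, 47.4, 19.8 and 28.5 in CAMK and 9.99 in CX3CL1-ct 5 against 21.4 to 45.4 in the other CX3CL1-ct libraries.

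Choroid plexus genes went against the striatal ones in WT. Ttr, transthyretin, stood at 2284, 295 and 1120.4 FPKM in WT and at 96.2, 877 and 654 in CAMK. The WT order (22.2% of genes tested) was held by 0 of the 9 tested, while all 9 were lowest in CAMK 1 (40.5%). The 10 genes of this list in the table summed to 309 to 2340.5 FPKM in WT, 103 to 907 in CAMK and 155 to 629.9 in CX3CL1-ct. Neocortical genes, such as Mef2c and Lmo4, summed to 371 to 385 FPKM in WT, 470.0 to 701 in CAMK and 373 to 796 in CX3CL1-ct, and 4 of 12 had the WT order. Microglial genes, such as C1qa, had 0 of 8 in the WT order and sums of 43.4 to 56.2, 48.3 to 51.8 and 42.9 to 66.2 FPKM. In these 8 lists, from the cholinergic to the microglial, 0 genes passed in any comparison (limma; at an unadjusted p under 0.05 the most were 8 of 12 neocortical genes in CAMK against WT).

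Apart from Bcl11b, the calls in marker lists came from the meningeal list and from the list of peripheral ganglia and neural crest. Of 10 meningeal genes 4 were higher in CX3CL1-ct than in WT, namely Slc6a13, Aldh1a2, Foxc1 and Col1a2, with log2 differences of 1.69, 1.41, 0.73 and 1.06 (limma adjusted p of 0.0156, 0.0164, 0.0420 and 0.0420). None of these 4 passed without CX3CL1-ct 1 to 3 (adjusted p of 0.298, 0.283, 0.450 and 0.469), without WT 2 (0.129, 0.135, 0.205 and 0.239) or without WT 3 (0.110, 0.110, 0.212 and 0.184). Foxc1 and Col1a2 also missed the threshold without WT 1 (0.0579 and 0.0717) and without any 1 of CX3CL1-ct 1 to 3 (0.0943 to 0.106). They missed it too under median-of-ratios scaling (0.0583 each), quantile normalization (0.0548 and 0.0565) and no filter (0.0553 and 0.0554). Col1a2 was also lost when scaled without small RNA genes (0.0531). All 4 were lost in the fit without CAMK (0.0526, 0.0519, 0.0940 and 0.109) and with CX3CL1-ct 1 to 3 averaged (0.126, 0.120, 0.213 and 0.246). The meningeal sums were 49.5 to 76.1 FPKM in WT, 79.3 to 89.8 in CAMK and 83.7 to 174 in CX3CL1-ct. Among 5 tested genes of peripheral ganglia and neural crest, Hand2 and Prph were lower in both transgenic groups than in WT. Hand2, for example, was 3.24 to 3.49 FPKM in all 3 WT libraries and at most 0.821 elsewhere (limma adjusted p = 0.000365 for CX3CL1-ct and 0.000449 for CAMK). Hand2 passed under all 19 alternatives for CX3CL1-ct and all 14 for CAMK. Prph was lost in CX3CL1-ct without CX3CL1-ct 1 to 3 (limma adjusted p = 0.110) and in CAMK in the fit without CX3CL1-ct (0.0661). In WT 1 this list summed to 18.9 FPKM against 17.6 and 19.2 in WT 2 and 3. Within WT the list was thus level where Drd1 and Isl1 differed. It was not level in CX3CL1-ct, where library 5 had 15.99 FPKM against 5.13 to 11.9 in the other libraries. The CAMK sums were 5.87, 7.64 and 6.59 FPKM in libraries 1 to 3, lowest in CAMK 1 as for Isl1.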

How the data were processed

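Total RNA of 12 hippocampal samples was sequenced from stranded, ribosome-depleted libraries as paired ends, per the labels. The authors deposited FPKM values for 29454 genes, made with TopHat, Bowtie, Cufflinks and Cuffdiff on mm10, per the submitters' processing notes, which give no versions or order. Scaling between libraries and use of strand in counting are not given in the sources used here. Read counts were not used here, so depth was estimated as 1.18e+07 to 1.63e+07 fragments a library, from genes of 1 exon and 1 transcript of 500 to 5000 nt and an assumed fragment length of 180 nt. By that estimate Six3 rested on 6 to 192 fragments, Isl1 on 12 to 336 and Drd2 on 21 to 231, so their low values are imprecise.

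Values were taken as log2(FPKM + 1), where changes of low genes look smaller. The 16503 genes reaching 1 FPKM in 3 or more libraries were fitted with limma 3.58.1 in R 4.3.3, with 3 group means over all 12 libraries, eBayes with trend, two-sided p-values and Benjamini-Hochberg adjustment over all genes (threshold 0.05). Groups and replicate numbers came from sample titles. Tables and motif searches used Python 3.11.15 with numpy 2.4.6 and pandas 2.3.3, and positions come from GENCODE M21. The 9 genes, the 13 marker lists and the orders of libraries were chosen with earlier results of these data known. All 9 genes are named. Of each list up to 4 genes past the threshold are named, otherwise up to 2 with the largest mean FPKM. For likeness, genes with a mean FPKM of at least 2 were ranked, without pseudogenes, predicted genes or those of small RNA, and the 12 highest and 4 lowest are named. A gene that the rule for lists selects is not reported here.

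On simulated data for 16503 genes, with 100 changed 2-fold and 100 changed 4-fold, the fit recovered 88 and 96 for CX3CL1-ct against CAMK with 13 false calls. For CX3CL1-ct against WT it recovered 85 and 97 with 15 false calls, and for CAMK against WT 86 and 96 with 11. With no gene altered it made 0 calls. The changed genes were drawn at random from genes with a mean log2(FPKM + 1) above 1. The noise was independent between genes, so recovery speaks for genes of usual spread above that level. The 9 genes had within-group SDs of 0.34 to 1.29 against a median of 0.15 over the genes tested. Recovery was not measured for genes with such a spread. Same-numbered WT and CAMK libraries had correlated deviations from their group means (r = 0.236, 0.163 and 0.100 over genes), which met the limit of 0.1 for pairing, whereas those of CX3CL1-ct with WT (0.114, -0.0622 and 0.0106) and with CAMK (0.110, -0.130 and -0.0912) did not. Alternatives were another pseudocount, no filter, 3 other scalings, a robust prior, fits of 2 groups, the replicate number as a block, each library left out, and CX3CL1-ct 1 to 3 averaged or left out. The last, the spread and likeness without WT 1 or CX3CL1-ct 5 or both, and all alternatives for called genes of the lists, were chosen after seeing the data.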

Additional observations from a re-analysis of the deposited data

Results flagged for a closer look

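In the CX3CL1-ct group of 6 libraries, the highest value lay far from the rest for 8 of the 9 genes, and each time the library was CX3CL1-ct 5. The gap to the next library, divided by the whole range of the group, was above 0.625, Dixon's limit for 6 values. The values in CX3CL1-ct 5 were 10.6 FPKM for Isl1 (gap 0.956 of the range), 4.02 for Six3 (0.928), 6.36 for Drd2 (0.897) and 6.22 for Adora2a (0.890). They were 44.7 FPKM for Pde10a (0.856), 27.9 for Ppp1r1b (0.823), 11.4 for Drd1 (0.741) and 18.9 for Rgs9 (0.710). Foxp1, with 37.8 FPKM in that library, was not among them. Chance marks about 1 in 20 such groups, and the 8 values come from 1 library, so they are not 8 separate cases. Groups of 3 were not examined in this way.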

How the results depend on the processing

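The count of genes called among the 9 stayed at 0 in CX3CL1-ct against CAMK under all 19 alternatives. In CX3CL1-ct against WT and in CAMK against WT it ranged from 0 to 1 over the libraries left out and was 0 under every other alternative, the 1 being Adora2a without WT replicate 1 (limma adjusted p = 0.0266 and 0.0349); fewer samples are part of that alternative, and the cause was not tested. Lowest adjusted p otherwise ran from 0.112 to 0.717 and from 0.166 to 0.629. Of single-gene fits, 0 of 171 changed sign in CX3CL1-ct against WT, 6 of 126 in CAMK against WT and 20 of 171 in CX3CL1-ct against CAMK. With the replicate block, no gene of the 9 was called in any comparison, and the lowest adjusted p was 0.248 between CX3CL1-ct and CAMK, and with WT as the reference 0.150 for CX3CL1-ct and 0.166 for CAMK. Over all genes the block called 176, 541 and 484, against 10, 75 and 59 without it, and no filter called 144 and 123 in the 2 comparisons with WT. Leaving out single libraries of the groups compared moved these 2 counts between 26 and 158 and between 21 and 66. Of the 75 genes called in CX3CL1-ct against WT, 44% were higher, against 27.8%, 29.0% and 30.0% under the 3 other scalings and 56.2% with a pseudocount of 0.1. No scaling moved the median of all genes by 0.1. The counts of 9 and 8 genes in the WT and CX3CL1-ct orders were the same under a pseudocount of 0.1 and the 3 scalings. The within-group SD of Six3 went from 0.85 to 1.61 with a pseudocount of 0.1, and without both WT 1 and CX3CL1-ct 5 the SD of 8 of the 9 genes, all but Foxp1, fell by more than 1.5 times. Depth limits Six3, Isl1 and Drd2, whose low values rest on few fragments.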
